A study of Taeniopygia guttata with 24 samples.

Results

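Immediate early and activity-regulated genes were followed in zebra finch telencephalon from hatching to adulthood. The 4 genes were EGR1, ARC, FOS and NPTX2, matched in the count table by their Ensembl identifiers (ENSTGUG00000000003, ENSTGUG00000012727, ENSTGUG00000012217 and ENSTGUG00000008623), out of 18618 genes in the table and 13891 that passed the filter on low counts. All 4 passed the filter. They lie on chromosomes 13, 2, 5 and 14, so that none of them is on Z, the sex chromosome of which male birds carry a pair and females a single copy. The study measured mRNA by RNA-Seq in the telencephalon, the forebrain that holds the nuclei for song learning, to follow gene expression across neurodevelopment in both sexes. Males and females of 4 ages were sampled: day 1, day 20 and day 65 after hatching (days post hatch, dph) and adults, which the labels place above 170 dph, while the methods text states a lower minimum. Each of the 24 samples was RNA pooled from 3 birds of the same sex and age, with 3 pools in each of the 8 groups and no genotype or treatment, so that variation between single birds is averaged within a pool. What the birds heard, sang or saw before sampling is not given in the sources used here.

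Immediate early genes are transcribed within minutes of strong synaptic input, from transcription factors already present in the neuron, and so serve as markers of recent neuronal activity. EGR1, known to songbird researchers as ZENK, is the gene most used for this in the zebra finch brain, where its mRNA increases in auditory forebrain on hearing song and in song nuclei on singing. EGR1 and FOS encode transcription factors, ARC encodes a cytoskeleton-associated protein that takes part in removing AMPA receptors from synapses, and NPTX2 encodes a secreted pentraxin that clusters AMPA receptors.

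Between 16680575 and 28772178 reads per pool were assigned to genes (median 22876461), so that 3 reads, the floor used here, corresponded to 0.104 to 0.180 cpm, the read count scaled to the size of the library. The lowest raw count of any of the 4 genes in any pool was 139 reads, for FOS at 1 dph. Levels below are cpm after TMM scaling and are not divided by gene length, so that they are compared between pools and not between genes. Markers of neurons summed to 1391 ± 211, 5560 ± 126, 7327 ± 188 and 8043 ± 227 cpm at 1, 20 and 65 dph and in adults (SD, n = 6, 7 of 11 listed symbols found). Telencephalon markers were present at every age (4 of 9 listed symbols found, EMX2, TBR1, NEUROD6 and LHX2, summed 455 to 1175 cpm). Their sum fell with age while that of the neuron markers rose. It was 1107 ± 74.2, 659 ± 41.2, 512 ± 17.9 and 473 ± 15.0 cpm at 1, 20 and 65 dph and in adults (SD, n = 6). The third female pool at 1 dph stood apart. Its neuron markers summed to 1803 cpm, against 1218 to 1397 cpm in the other 5 pools of that age, and GATA3, a midbrain and hindbrain transcription factor, was at 11.1 cpm, against 1.19 to 3.36 cpm. In bulk tissue, fewer cells of a type and less RNA per cell cannot be told apart.

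EGR1 was low at 1 dph and high at every later age, with its top level at 65 dph. At 1 dph it had 20.4, 21.9 and 21.2 cpm in the male pools, against 16.02, 25.1 and 19.0 cpm in the female pools. At 20 dph it had 286, 268 and 349 cpm in males, against 259, 251 and 226 cpm in females. Here all male pools lay above all female pools, with no sex difference called. Such absence of overlap at 20 dph was seen for 16.8% of all genes. At 65 dph it had 291, 355 and 409 cpm in males, against 410, 343 and 308 cpm in females. In adults it had 321, 289 and 251 cpm in males, against 229, 325 and 250 cpm in females. Males and females overlapped at 1 dph, at 65 dph and in adults. Over both sexes EGR1 averaged 20.6 ± 3.03, 273 ± 42.3, 353 ± 49.7 and 277 ± 40.3 cpm at the 4 ages in order (SD, n = 6).

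ARC followed the same course, and was the only 1 of the 4 whose adult pools all lay below its pools at 65 dph. It had 9.41, 9.66 and 11.5 cpm in male pools at 1 dph, against 10.9, 10.4 and 8.26 cpm in female pools. At 20 dph it had 116, 106 and 152 cpm in males, against 127, 111 and 93.3 cpm in females. At 65 dph it had 132, 165 and 175 cpm in males, against 181, 149 and 149 cpm in females. The third male pool at 20 dph was the highest of its age for ARC, as it was for EGR1 and FOS. In adults ARC had 91.3, 126 and 102 cpm in males, against 113, 122 and 91.8 cpm in females. The sexes overlapped at all 4 ages. Over both sexes the levels were 10.03 ± 1.17, 118 ± 20.2, 158 ± 18.5 and 108 ± 14.9 cpm at the 4 ages in order (SD, n = 6).

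FOS reached its plateau by 20 dph and was lower again in adults. At 1 dph it had 5.79, 6.49 and 6.67 cpm in males, against 4.94, 8.38 and 6.48 cpm in females. At 20 dph it had 44.6, 47.7 and 58.5 cpm in males, against 42.0, 42.4 and 34.9 cpm in females. The sexes again did not overlap, as for 16.8% of all genes, and no sex difference was called. At 65 dph it had 39.9, 48.1 and 56.1 cpm in males, against 54.6, 42.0 and 49.6 cpm in females. Adult males had the widest range of the 8 groups for FOS, with the highest pool 1.72-fold above the lowest. Adult males had 44.8, 37.7 and 26.1 cpm, against 24.2, 35.2 and 26.8 cpm in adult females. Over both sexes FOS averaged 6.46 ± 1.14, 45.0 ± 7.86, 48.4 ± 6.53 and 32.5 ± 8.12 cpm at the 4 ages in order (SD, n = 6).

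NPTX2 was also low at 1 dph, but its adult level stayed close to that at 65 dph. At 1 dph it had 21.9, 30.7 and 26.5 cpm in males, against 23.8, 22.9 and 37.8 cpm in females, of which the last is the pool that stood apart. At 20 dph it had 119, 134 and 128 cpm in males, against 152, 126 and 114 cpm in females. At 65 dph it had 160, 163 and 156 cpm in males, against 134, 146 and 184 cpm in females. The male pools lay within the female range at 20 and 65 dph. In adults NPTX2 had 149, 164 and 146 cpm in males, against 138, 133 and 146 cpm in females. Over both sexes NPTX2 averaged 27.3 ± 6.06, 129 ± 13.2, 157 ± 16.9 and 146 ± 10.9 cpm at the 4 ages in order (SD, n = 6).

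**Figure D1:**
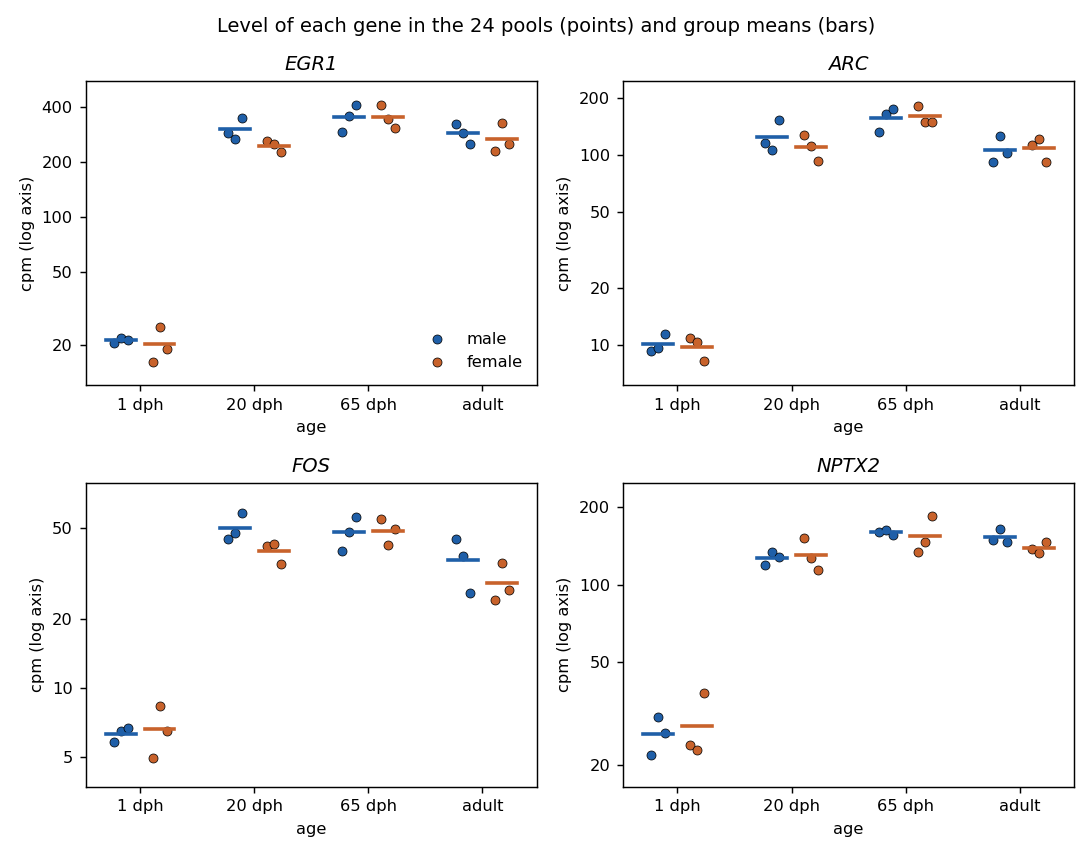
Level of EGR1, ARC, FOS and NPTX2 in each of the 24 pools (points, cpm on a log axis) by age, with males left of females and the mean of each group of 3 pools as a bar. The 6 pools at 1 dph lie below all 18 later pools in each panel.

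Ordered by mean level over the 8 groups, the 1 dph groups came lowest for all 4 genes and did not overlap the next group. Above that gap, each group overlapped its neighbour in the order for every gene. The 65 dph groups held the top ranks for EGR1, ARC and NPTX2. For FOS, 20 dph males (50.3 ± 7.31 cpm) came above 65 dph females (48.7 ± 6.33 cpm; SD, n = 3 each), within the spread between pools.

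Higher expression after 1 dph was called for 4 of 4 genes, against 35.1% of all tested genes. The study had already named all 4 as higher at every later age than at 1 dph in these same pools. Their calls, ranks and separation from 1 dph, here and at 20 dph, therefore describe the size of a known difference and are no independent test. A gene was called for age or sex when it passed an omnibus test over 5 contrasts at a false discovery rate of 0.05 and its own contrast had a Holm-adjusted p of at most 0.05 in edgeR's quasi-likelihood test. The mean over 20 dph, 65 dph and adulthood relative to 1 dph was 14.5-fold for EGR1 (95% interval 12.3 to 17.1) and 12.6-fold for ARC (10.6 to 14.8). It was 6.37-fold for FOS (5.29 to 7.68) and 5.26-fold for NPTX2 (4.56 to 6.07). Ranked from the largest log2 fold change among 13891 genes, EGR1 was number 65, ARC 85, FOS 254 and NPTX2 359. The median log2 fold change of all tested genes was -0.02. Separation of all 18 later pools from all 6 pools at 1 dph, with the later pools higher, was seen for 4 of 4 genes and for 21.6% of all genes. Without TMM scaling this median moved to -0.27 and the log2 fold changes were 3.61 for EGR1, 3.40 for ARC, 2.42 for FOS and 2.15 for NPTX2, all still called.

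Most of this difference was already present at 20 dph. The 20 dph pools exceeded those of 1 dph for 4 of 4 genes, against 35.9% of all genes called higher, by log2 fold changes of 3.72 (SE 0.12) for EGR1, 3.55 (SE 0.12) for ARC, 2.79 (SE 0.14) for FOS and 2.24 (SE 0.11) for NPTX2. No pool at 20 dph overlapped a pool at 1 dph for any of the 4, a separation with the later age higher that was seen for 26.3% of all genes. For NPTX2 the log2 fold change was 2.38 when the female pool that stood apart was left out. Benjamini-Hochberg adjusted p-values from edgeR ranged between 9.15e-18 for EGR1 and 3.10e-14 for FOS.

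Between 20 and 65 dph the 4 genes did not all receive the same call. A further increase was called for 3 of the 4, against 14.6% of all genes. EGR1 had 291, 349 and 410 cpm as its lowest, median and highest pool at 65 dph, against 226, 263 and 349 cpm at 20 dph, a log2 fold change of 0.38 (SE 0.11, edgeR adjusted p = 0.00936). ARC had 132, 157 and 181 cpm, against 93.3, 114 and 152 cpm, a log2 fold change of 0.43 (SE 0.11, edgeR adjusted p = 0.00356). For both genes the top 3 of the 6 pools at 65 dph lay above every pool at 20 dph, and the other 3 overlapped. NPTX2 had 134, 158 and 184 cpm, against 114, 127 and 152 cpm, a log2 fold change of 0.29 (SE 0.10, edgeR adjusted p = 0.0387). The NPTX2 call was lost when any 1 of 9 pools was left out, with edgeR adjusted p-values between 0.0502 and 0.132. These pools were male 3 at 1 dph, females 2 and 3 and males 1 and 3 at 20 dph, and female 3 and males 1, 2 and 3 at 65 dph. FOS had 39.9, 48.9 and 56.1 cpm, against 34.9, 43.5 and 58.5 cpm, with a log2 difference of 0.11 (95% interval -0.15 to 0.38, edgeR adjusted p = 0.548). All 6 FOS pools at 65 dph lay within the range at 20 dph. In a fit of males alone, with 12 pools, the calls of EGR1 (log2 fold change 0.22, edgeR adjusted p = 0.236) and ARC (0.33, adjusted p = 0.126) were lost and FOS was at -0.073 (adjusted p = 0.805). In females alone they were 0.52 for both EGR1 and ARC and still called, and the NPTX2 call was lost (0.24, adjusted p = 0.381). Without TMM scaling the NPTX2 value was 0.26 (edgeR adjusted p = 0.0594).

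From 65 dph to adulthood expression fell for 3 of the 4 genes, against 10.7% of all genes called lower. ARC had 91.3, 107 and 126 cpm as its lowest, median and highest adult pool, against 132, 157 and 181 cpm at 65 dph, with no overlap, and fell by 0.56 on the log2 scale (SE 0.11, edgeR adjusted p = 0.000778). Such separation, with adults lower, was seen for 5.11% of all genes. FOS had 24.2, 31.0 and 44.8 cpm, against 39.9, 48.9 and 56.1 cpm, and fell by 0.59 (SE 0.13, edgeR adjusted p = 0.00266), with 5 of 6 adult pools below every pool at 65 dph. EGR1 had 229, 270 and 325 cpm, against 291, 349 and 410 cpm, and fell by 0.35 (SE 0.11, edgeR adjusted p = 0.0219), with 4 of 6 adult pools below. The EGR1 call was lost without female 1 at 65 dph (edgeR adjusted p = 0.0607), male 3 at 65 dph (0.0666), adult female 1 (0.0648) or adult male 3 (0.0627). It was also lost in males alone (-0.29, edgeR adjusted p = 0.149) and in females alone (-0.40, 0.126), and that of FOS in males alone (-0.41, 0.151). NPTX2 had 133, 146 and 164 cpm, against 134, 158 and 184 cpm, with a log2 difference of -0.11 (95% interval -0.32 to 0.10, edgeR adjusted p = 0.487). EGR1 and ARC were among 131 genes, 0.943% of those tested, that were called higher at 20 dph, higher again at 65 dph and lower in adults. Their higher level at 20 dph was known beforehand, and 4990 genes in all were called higher at 20 than at 1 dph.

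**Figure D2:**
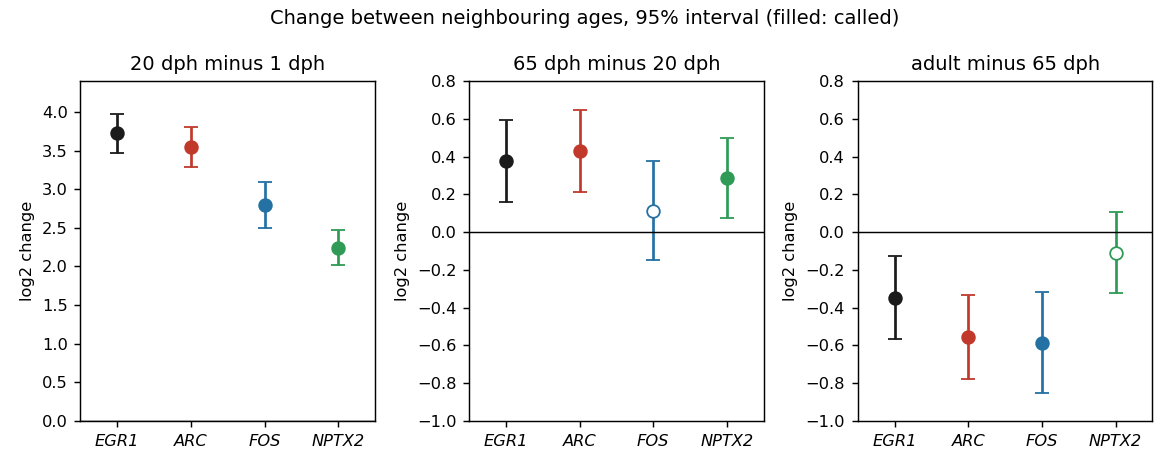
Log2 change of each gene between neighbouring ages with its 95% interval from the fit over 24 pools, where filled points were called at an adjusted p of 0.05 and open points were not. The FOS interval spans 0 between 20 and 65 dph, the NPTX2 interval spans 0 between 65 dph and adulthood, and the vertical scale of the left panel differs from the others.

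Whether 2 of the genes changed by different amounts was tested on their log2 ratio within each pool, for 6 pairs of genes at 3 steps between ages. These 18 comparisons were chosen after the values were seen, and used a two-sided exact permutation test of 6 pools against 6, whose smallest possible p is 0.00216. From 1 to 20 dph the increase was larger for EGR1 than for FOS by 0.94 on the log2 scale (p = 0.00216, Benjamini-Hochberg adjusted p = 0.00974, exact permutation test) and larger for EGR1 than for NPTX2 by 1.47 (same p). EGR1 and ARC changed by amounts that differed by 0.19 (p = 0.132, adjusted p = 0.198, exact permutation test). From 20 to 65 dph the EGR1 to FOS ratio increased by 0.26 (adjusted p = 0.0195) and the ARC to FOS ratio by 0.33 (adjusted p = 0.0156, both exact permutation tests). From 65 dph to adulthood ARC fell relative to NPTX2 by 0.46 (adjusted p = 0.0334, exact permutation test). The FOS to NPTX2 ratio differed by -0.50 at that step and did not pass (adjusted p = 0.0506, exact permutation test).

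The 4 genes were also set against the sum of the neuron markers in each pool. All 8 marker identifiers were called higher at 20 than at 1 dph, against 35.9% of all genes. They were found through the study's gene tables, which favour genes that changed with age, so that this share is no like comparison. RBFOX3, STMN2, TUBB3 and MAP2 were listed and not found, and the sum describes the markers found. At 65 dph 2 of 8 were called higher than at 20 dph, against 14.6% of all genes. In adults 3 of 8 were called higher than at 65 dph, against 10.5% of all genes. After 20 dph the sum followed SNAP25, a synaptic vesicle fusion protein (2412, 4024 and 4611 cpm at 20 dph, 65 dph and in adults), more than SLC17A6, a glutamate transporter (1026, 998 and 958 cpm). The log2 ratio of EGR1 to this sum was -6.08 ± 0.32, -4.36 ± 0.22, -4.39 ± 0.17 and -4.87 ± 0.20 from the youngest age to the oldest (SD, n = 6), and that of ARC was -7.11 ± 0.33, -5.58 ± 0.24, -5.54 ± 0.14 and -6.24 ± 0.22. FOS had -7.76 ± 0.31, -6.97 ± 0.25, -7.25 ± 0.17 and -7.99 ± 0.35, with an adult mean below that at 1 dph. NPTX2 had the smallest range of means, with -5.69 ± 0.14, -5.44 ± 0.14, -5.55 ± 0.18 and -5.79 ± 0.14. These ratios are descriptions with no test. The part of neuron number or neuronal RNA content in the changes with age was not tested.

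No sex difference was called for any of the 4 genes at any age. The shares of all genes called between males and females were 5.59%, 4.45%, 4.87% and 2.15% at 1, 20 and 65 dph and in adults. At 20 dph the log2 difference, male minus female, was 0.34 for FOS (95% interval -0.03 to 0.71, Holm-adjusted p = 0.291 in edgeR) and 0.30 for EGR1 (-0.01 to 0.61, Holm-adjusted p = 0.240 in edgeR). The absence of overlap between male and female pools seen for these genes at 20 dph was found for 16.8% of all genes. In adults the log2 difference for FOS was 0.33 (95% interval -0.05 to 0.72, Holm-adjusted p = 0.291 in edgeR). Without the lowest adult male pool, male 3, it was 0.52 and was called (Holm-adjusted p = 0.0362 in edgeR). The other 13 intervals for the 4 genes across ages reached at most from -0.51 to 0.48. The interaction of sex and age gave adjusted p-values of 0.879 to 0.967 in edgeR for the 4 genes, against 1.05% of genes called, so that a different course in males and females was not detected for any of them.

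Pools of the same sex and age differed more for these genes than for most genes of like level. The SD of log2 cpm within groups was 0.21 for EGR1, 0.21 for ARC, 0.26 for FOS and 0.21 for NPTX2, against a median of 0.16 over all genes. Among genes within 0.5 log2 units of its mean level, the SD was larger than for 99.1% of 1171 genes for EGR1, 97.1% of 2099 for ARC, 95.5% of 2217 for FOS and 97.7% of 1747 for NPTX2. These shares are descriptions and carry no test. The spread of FOS was smallest at 20 dph (0.18) and largest in adults (0.34). NPTX2 ran the other way in adults, with 0.33 at 1 dph and 0.08 in adults. Its largest deviation from a group mean at 1 dph was 0.46, in the third female pool, which stood apart in its markers.

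Among pools of 1 age, EGR1 and FOS were high and low together. Over the 6 pools of an age the Pearson correlation of their log2 cpm was 0.92, 0.95, 0.80 and 0.92 from 1 dph to adulthood. The exact permutation p-values over 720 pairings were 0.0292, 0.0125, 0.0569 and 0.0306, and 0.122, 0.122, 0.171 and 0.122 after Benjamini-Hochberg adjustment over the 24 values (6 pairs of genes at 4 ages). Spearman's rho was 0.89, 0.89, 0.77 and 0.77 (exact permutation p = 0.0333, 0.0333, 0.103 and 0.103, adjusted p = 0.267, 0.267, 0.411 and 0.411). After removal of the 2 pools farthest from the median of EGR1, r was 0.19, 0.51, 0.55 and 0.97 in the same order. At 1 dph the 2 pools removed were females 1 and 2, with 16.02 and 25.1 cpm of EGR1 and 4.94 and 8.38 cpm of FOS. The pools left spanned only 19.0 to 21.9 cpm of EGR1, so that r over them cannot decide whether the relation holds. When any single pool of that age was left out, r was 0.83 to 0.96. With the means of the sexes removed, r was 0.97, 0.90, 0.80 and 0.93 at the 4 ages in order.

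For EGR1 and ARC 1 of the 4 ages passed the test, and differences in r between ages were not tested. Their r was 0.88 at 20 dph (exact permutation p = 0.0306, adjusted p = 0.122) and 0.95 at 65 dph (exact permutation p = 0.00139, the smallest that 720 pairings can give, adjusted p = 0.0333). The value at 65 dph, with a Spearman's rho of 1 (exact permutation p = 0.00278, adjusted p = 0.0667), was the only 1 of the 24 Pearson values past 0.05 after adjustment. It was 0.90 without the 2 farthest pools, and 0.93 to 0.97 when any single pool of that age was left out, where 5 pools give too few pairings for a lone pair to pass adjustment. Without TMM scaling and with all 6 pools it was 0.95 and did not pass (exact permutation test, adjusted p = 0.0667). At 20 dph the 2 farthest pools were the highest, male 3 (349 cpm of EGR1 and 152 cpm of ARC), and the lowest, female 3 (226 and 93.3 cpm). Without them the r was -0.05, while with the means of the sexes removed and all 6 pools kept it was 0.97. The value at 20 dph thus depended on how pools and sexes were handled. At 1 dph and in adults the r of EGR1 and ARC was 0.04 and 0.14 (exact permutation p = 0.949 and 0.771, adjusted p = 0.975 at both ages).

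ARC and FOS passed at no age, with an r of 0.83 at 20 dph (exact permutation p = 0.0556, adjusted p = 0.171) and 0.90 at 65 dph (exact permutation p = 0.0208, adjusted p = 0.122), against -0.03 at 1 dph and 0.05 in adults. No correlation of NPTX2 with the other 3 passed at any age. Its r with EGR1 was -0.12, 0.13, -0.64 and 0.07 at the 4 ages in order, and its r with ARC was -0.62, 0.45, -0.47 and 0.02. With FOS it was 0.07, 0.25, -0.15 and 0.36 (exact permutation p of these 12 values 0.153 to 0.968). Of all 24 values, 18 were above 0, namely 6 of 6 pairs at 20 dph and in adults and 3 of 6 at 1 and 65 dph. The median r was 0.0034, 0.64, 0.32 and 0.11 at the 4 ages in order, so that most adult values were small. Pairs of an age share genes and pools, and their signs are not independent. Of the 24 values, 6 had an unadjusted exact permutation p under 0.05.

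Over all 24 pools, with each gene expressed as the deviation from the mean of its group of 3, EGR1 and FOS had an r of 0.90 (Spearman's rho 0.90, permutation p = 7.00e-05, Benjamini-Hochberg adjusted p = 0.00042 over 6 pairs of genes, pools permuted within groups). They lay on the same side of the group mean in 22 of 24 pools. The r was 0.86 without the 2 pools farthest from the median of EGR1 (1 dph female 2 and adult female 2) and 0.87 to 0.94 when any single pool was left out. As a description with no test, FOS was the gene of highest r with EGR1 among the other 13890 genes, and EGR1 that of highest r with FOS. The 99th percentile of r with EGR1 over all other genes was 0.52. ARC deviated with EGR1 by an r of 0.48 (rho 0.54, permutation p = 0.0554, adjusted p = 0.166) and with FOS by 0.38 (rho 0.49, permutation p = 0.148, adjusted p = 0.296). Without the first female pool at 1 dph, in which ARC was above its group mean and EGR1 and FOS below, the r of ARC and EGR1 was 0.66 (permutation p adjusted to 0.0295). No pair with NPTX2 passed the test, with an r of -0.16 with EGR1, -0.17 with ARC and 0.08 with FOS (permutation p adjusted to 0.815, 0.763 and 0.832).

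EGR1, ARC and FOS lay on the same side of their group means in 18 of 24 pools. All 4 genes were above in 5 pools and all 4 below in 5 pools. The pool with the largest mean standardised deviation upward over the 4 genes was the third male pool at 20 dph, where log2 deviations were 0.22 for EGR1, 0.30 for ARC, 0.23 for FOS and 0.0095 for NPTX2. The largest downward was in the first male pool at 65 dph, with -0.26 for EGR1, -0.24 for ARC, -0.25 for FOS and 0.0068 for NPTX2. The mean standardised deviation of EGR1, ARC and FOS had an r of 0.05 with that of the summed neuron markers, -0.29 with oligodendrocyte markers, 0.24 with the blood marker HBAA and -0.09 with the number of reads, over 24 pools and as a description. For the mean of all 4 genes these values were 0.30, -0.03, 0.36 and 0.05 in the same order. With GATA3 the r was 0.08 without NPTX2 and 0.36 for all 4 genes. The part of cell composition in this co-variation was not tested.

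**Figure D3:**
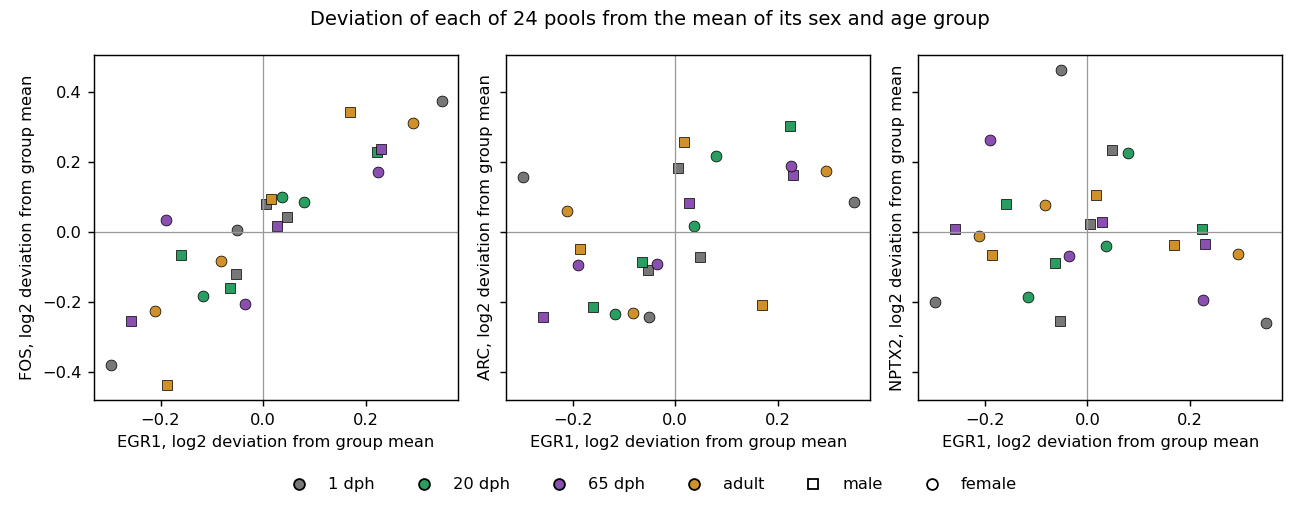
Log2 deviation of FOS, ARC and NPTX2 from the group mean against that of EGR1, each point a pool, coloured by age, with squares for males and circles for females. FOS follows EGR1 along the diagonal (r = 0.90 over 24 pools), ARC does so loosely (0.48), and the NPTX2 points scatter over all quadrants (-0.16).

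The genes with a symbol whose deviations among like pools were nearest to those of the 4 members are given as a description. DUSP6, a phosphatase that switches off ERK, had the highest r with the mean deviation of the 4 (0.75 over 24 pools, the highest of all genes outside the 4), followed by NR4A1, an immediate early nuclear receptor (0.71), DUSP14, a further dual-specificity phosphatase (0.70), HAS2, a hyaluronan synthase (0.65), and ZDHHC14, of the palmitoyltransferase family (0.64). Nearest to EGR1 after FOS were SNRPD1, a core spliceosome protein (0.73), DUSP6 (0.70) and NR4A1 (0.68). ZDHHC14 (0.76), CYP46A1, a cholesterol hydroxylase of neurons (0.72), and SMAD6, an inhibitor of BMP signalling (0.70), were nearest to FOS. SIPA1L1, a postsynaptic regulator of Rap (0.79), KDM4C, a histone demethylase (0.79), and SERPINB5 (0.78) were nearest to ARC. HAS2 lay close to the filter of 1 cpm, with 1.22, 1.19 and 1.20 cpm at 20 dph, 65 dph and in adults. SERPINB5 averaged 0.77 cpm at 1 dph. NPTX2 had other neighbours, NAPB, a vesicle fusion protein (0.83), OMG, a glycoprotein of myelin and neurons (0.82), and ENO2, the neuronal enolase (0.82). The largest NPTX2 deviation was in the third female pool at 1 dph, which stood apart, and these values were not computed without it. By the course over the 8 group means, the most alike were TMEM9B, MAP2K1, the kinase directly upstream of ERK, ITM2C, CAMK2G and ABHD6 (r 0.999 to 1.00 over 8 groups, a description in which age dominates). MAP2K1 averaged 103, 477, 567.6 and 464 cpm at the 4 ages in order. Symbols were known for only some of the genes, so that nearer genes without a symbol are left out.

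Other activity genes were counted from 4 lists of symbols, of which 39 identifiers could be found. Identifiers carried symbols mostly where the study's tables listed a gene, and those tables favour genes that changed with age, so that the counts with age describe the genes found and not each pathway. Every one of the 39 was called for age in 1 direction or the other. Shares of all genes set beside their counts with age are therefore no like comparison. EGR2, EGR3, EGR4, FOSB, JUN, JUNB, NR4A3, NPAS4 and NPTX1 were not analysed here. Of 6 other immediate early transcription factors, 3 rose and 3 fell after 1 dph (median log2 fold change 0.05, against -0.02 for all genes), against 35.1% of all genes called higher and 37.2% lower. NR4A1 rose most (log2 fold change 3.32, edgeR Holm-adjusted p = 1.07e-16), with CREM (1.67) and JUND (0.47), and KLF4 (-2.33), KLF6 (-2.01) and NR4A2 (-0.37) fell. NR4A1 had 2.72 ± 0.65, 24.3 ± 3.12, 35.2 ± 5.05 and 23.2 ± 5.06 cpm at the 4 ages in order (SD, n = 6). It was called higher at 65 than at 20 dph (log2 fold change 0.53, edgeR adjusted p = 0.00243) and lower in adults than at 65 dph (-0.60, edgeR adjusted p = 0.00179), which are the same calls as for EGR1 and ARC. Between 20 and 65 dph 2 of the 6 factors were called higher and 3 lower, against 14.6% and 15.4% of all genes. Of the 39 identifiers 2 had the 3 calls of EGR1 and ARC, NR4A1 and CAMK4, a calcium-dependent kinase that acts on CREB. Called higher at 20 than at 1 dph and lower in adults than at 65 dph were 9 of the 39, against 5.60% of all genes. The first of these calls was common among genes found in this way, so that this share is no like comparison. Of all genes 4990 were called higher at 20 dph, and 778 of them were also called lower in adults.

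All 12 identifiers of 11 effector genes, RHEB having 2, rose after 1 dph (median log2 fold change 1.47), against 35.1% of all genes called higher. As every identifier found was called for age, that share is no like comparison. RGS4, a regulator of G protein signalling (log2 fold change 4.39), PCSK1, a prohormone convertase (2.74), and BDNF, a growth factor released with activity (2.65), rose most. The smallest increases were those of PLK2, a kinase induced by activity (0.38), a RHEB identifier (1.00) and SGK1, a kinase (1.08), while HOMER1, a scaffold of glutamate receptors, rose by 1.52 on the same scale. Between 20 and 65 dph 3 of the 12 were called higher, against 14.6% of all genes, with RGS4 (0.89), TIPARP (0.38) and NRN1 (0.26). From 65 dph to adulthood 2 of the 12 fell, against 10.7% of all genes, namely DUSP6 by 0.44 (edgeR adjusted p = 0.000127) and PLK2 by 0.19 (edgeR adjusted p = 0.00918), and none rose by this test (highest log2 difference 0.12). BDNF was called at neither later step, with 26.5 ± 2.82 cpm at 20 dph, 26.4 ± 2.13 cpm at 65 dph and 24.4 ± 1.26 cpm in adults (SD, n = 6).

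All 9 identified partners of NPTX2 and ARC rose after 1 dph (median 2.06, against 35.1% of all genes called higher), with CAMK2A (3.83), SYNPO, of the dendritic spine apparatus (3.74), and SH3GL2, an endophilin (2.44), at the top. SH3GL3 (0.84), GRIA3 (0.95) and GRIA2 (1.52) were lowest. NPTXR, the pentraxin receptor, had 171 ± 14.0, 661 ± 29.8, 649 ± 64.1 and 507 ± 51.9 cpm at the 4 ages in order and fell from 65 dph to adulthood by 0.36 (edgeR adjusted p = 0.000938). GRIA4, an AMPA receptor subunit, rose at that step (log2 fold change 0.28, edgeR adjusted p = 0.00104). SYNPO fell by 0.64 and CAMK2B by 0.18, so that 1 of the 9 was called higher and 3 lower in adults, against 10.5% and 10.7% of all genes, while for NPTX2 itself neither was called. Of 12 upstream regulators, among them glutamate receptors, kinases and the factors MEF2 and ELK4, 12 rose after 1 dph (median 1.57), again against 35.1% of all genes. For the partners and the regulators that share is no like comparison, since every identifier found was called for age. CAMK4 (3.41), GRIN2A (3.02) and MRTFB (2.89) rose most, and MEF2C (0.41), CACNA1D (0.99) and GRIN2B (1.15) least. In adults 2 of them were higher than at 65 dph, MRTFB (0.36) and CACNA1D (0.31), and 2 lower, GRIN1 (-0.34) and CAMK4 (-0.24), against 10.5% and 10.7% of all genes.

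Between the sexes 7 of the 39 identifiers were called at 1 or more ages, each time with the higher level in males. At the 4 ages in order these were 7, 3, 6 and 1 of 39, against 5.59%, 4.45%, 4.87% and 2.15% of all genes, and 6 of the 39 are given on chromosome Z. Of the 7, KLF4, HOMER1, SH3GL2, CAMK4 and NTRK2, the BDNF receptor, are Z-linked, and PLK2 and MEF2C carried no chromosome. The study's tables that supplied symbols include its lists of Z-linked genes, and the Z share of all tested genes was not computed. These counts between the sexes therefore describe the genes found and not activity genes as a class. KLF4 had the largest difference, with a log2 fold change of 0.96 at 1 dph (edgeR Holm-adjusted p = 3.74e-05), and was called at all 4 ages. It averaged only 2.41, 1.73 and 1.54 cpm at 20 dph, 65 dph and in adults, close to the filter of 1 cpm. Its adult call was narrow (edgeR Holm-adjusted p = 0.0390). HOMER1 was called at 1 dph (log2 fold change 0.35) and 65 dph (0.41).

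Among pools of 1 sex and age, different list genes varied with EGR1 and with NPTX2, given here as correlations of deviations over 24 pools with no test. NR4A1 and DUSP6 had an r of 0.68 and 0.70 with EGR1, and of -0.03 and 0.12 with NPTX2. BDNF, RGS4 and SCG2, a secretogranin, had an r of 0.72, 0.69 and 0.66 with NPTX2, and of 0.17, -0.06 and 0.12 with EGR1. The largest NPTX2 deviation, 0.46, was in the third female pool at 1 dph, which stood apart in its markers. The r of the list genes with NPTX2 was not computed without that pool, so that its part in these values is not known. Of the 12 effectors, 4 exceeded the 95th percentile of all genes for NPTX2 and 1 did for EGR1. Of the 12 upstream regulators, 12 had an r above 0 with ARC (median 0.53, against 0.01 for all genes) and 7 exceeded the 95th percentile of 0.48. How these regulators varied with one another was not computed, so that these counts may repeat a single shared pattern among pools. The median r of these 12 genes was -0.03 with EGR1 and -0.14 with FOS.

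**Figure D4:**
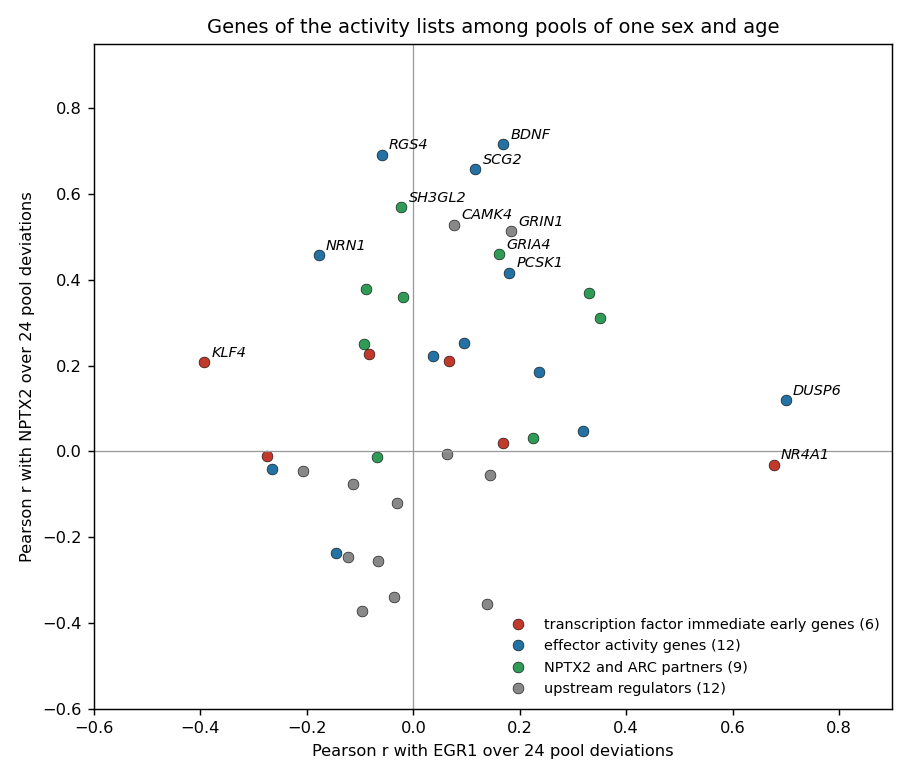
Pearson r of each of 39 list identifiers with EGR1 (horizontal) and with NPTX2 (vertical), computed over the deviations of 24 pools from their group means and coloured by list. NR4A1 and DUSP6 lie far to the right near a vertical value of 0, while BDNF, RGS4 and SCG2 lie at the top near a horizontal value of 0. All values include the third female pool at 1 dph, which stood apart and where NPTX2 deviated most.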

How the data were processed

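The authors sequenced stranded mRNA libraries of 24 telencephalon pools and deposited whole-number read counts per Ensembl gene, made with STAR 2.5.2b and HTSeq 0.6.0 on assembly taeGut3.2.4 without trimming. The strand setting of the counting is not given in the sources used here, so that reads of overlapping antisense genes may be included. The methods state that nest mates were spread at random over the ages, but the nests behind each pool are not given in the sources used here. The 13891 genes that reached 1 cpm in 3 or more pools were fitted with edgeR 4.0.16 (R 4.3.3) in a quasi-likelihood model with TMM scaling and 8 group means. The effects of age and sex were called stagewise, an omnibus test over 5 contrasts with Benjamini-Hochberg adjustment followed by Holm adjustment within a gene, and neighbouring ages and the interaction by Benjamini-Hochberg adjustment at 0.05 over all genes. Correlations used log2 cpm with a prior count of 2, exact permutations over 720 pairings within an age, and 100000 permutations within groups for deviations (numpy 2.4.6, scipy 1.17.1). DESeq2 1.42.0, other scalings, no filter, single-sex and single-age fits and leaving out each pool were tried as alternatives. The fits and correlations were tested on simulated data. Symbols came from the study's own gene tables. The genes of interest, the lists and the tests were chosen with earlier results of these data known. Genes named from the lists are, per comparison with 1 dph, the 3 with the largest and the 3 with the smallest log2 fold change, with NPTXR, GRIA4, NR4A1, HOMER1 and BDNF, the genes called at later steps or between sexes, and the 3 or 5 genes nearest by correlation. Those named for later steps, between sexes or for their correlations with EGR1 and NPTX2 within the lists were chosen after their values were seen. Promoter and protein sequences were not analysed here.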

Additional observations from a re-analysis of the deposited data

How the results depend on the processing

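Under 7 alternatives to the effect of age and 24 fits that each left out 1 pool, the 4 genes kept their direction and call, with log2 fold changes from 3.61 to 3.87 for EGR1, 3.40 to 3.65 for ARC, 2.42 to 2.80 for FOS and 2.15 to 2.46 for NPTX2 over the alternatives and 3.79 to 3.94, 3.59 to 3.70, 2.58 to 2.77 and 2.32 to 2.53 with a pool left out. The step from 1 to 20 dph kept its calls likewise. ARC kept its call from 65 dph to adulthood under all of its alternatives. The later steps of the other genes depended on fits with fewer pools, which test fewer samples. In males alone the increase from 20 to 65 dph was 0.22 for EGR1 (edgeR adjusted p = 0.236) and 0.33 for ARC (0.126), FOS was at -0.073 (0.805), and the adult difference from 65 dph was -0.29 for EGR1 (0.149) and -0.41 for FOS (0.151). In females alone the log2 fold change of NPTX2 from 20 to 65 dph was 0.24 (edgeR adjusted p = 0.381) and the adult difference for EGR1 was -0.40 (0.126). Without TMM the NPTX2 value from 20 to 65 dph was 0.26 (edgeR adjusted p = 0.0594), the cause of which was not tested. Over all alternatives these adjusted p-values ranged from 0.00219 to 0.236 for EGR1 and from 0.0220 to 0.381 for NPTX2 between 20 and 65 dph, and from 0.00627 to 0.149 for EGR1 and from 0.000119 to 0.151 for FOS between 65 dph and adulthood. The log2 difference of the sexes for EGR1 at 65 dph, -0.0076, was 0.00346 without a filter and 0.000576 in the 6 pools of that age, not called in either.

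With 1 pool left out, log2 fold changes ranged from 0.21 to 0.35 for NPTX2 from 20 to 65 dph and from -0.43 to -0.29 for EGR1 from 65 dph to adulthood. Sex differences then ranged, at 1 dph, from -0.064 to 0.27 for EGR1, -0.068 to 0.13 for ARC, -0.24 to 0.14 for FOS and -0.23 to 0.17 for NPTX2. At 20 dph they ranged from -0.13 to 0.081 for NPTX2, and at 65 dph from -0.13 to 0.11 for EGR1, -0.11 to 0.090 for ARC, -0.15 to 0.095 for FOS and -0.048 to 0.19 for NPTX2. In adults they ranged from -0.0078 to 0.26 for EGR1, -0.17 to 0.070 for ARC and 0.15 to 0.52 for FOS. Over all genes, adjustment per contrast called 515, 376 and 6 genes between the sexes at 1 dph, at 20 dph and in adults (against 776, 618 and 299), and fits on the 6 pools of an age called 428, 377, 412 and 5 at 1, 20 and 65 dph and in adults (against 676 at 65 dph). From 20 to 65 dph 2399 genes were called in males alone and 1834 in females alone (against 4164), and from 65 dph to adulthood 1088 and 965 (against 2948). DESeq2 called 287 genes for the interaction (against 146), and 82 to 239 were called with 1 pool left out, while 128 to 389 were then called between adult sexes. No single-pool fit or alternative called the interaction for the 4 genes.

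Of the 24 within-age correlations, 0 passed 0.05 (Pearson, exact permutation, adjusted) without TMM or with sex means removed, against 1 in the main analysis and 0 to 1 with a pool left out. With sex means removed the smallest p reached was 0.0278, and with 5 pools pairings are likewise few, so that losing the call says nothing about stability in these settings. Without TMM a pass was possible, and EGR1 and ARC at 65 dph had an adjusted p of 0.0667 (exact permutation test). By unadjusted p 6 of 24 were under 0.05. The deviations of EGR1 and FOS gave an r of 0.89 and 0.90 under the alternatives. With 1 pool left out, 1 to 2 of the 6 pairs passed, and r ranged from 0.40 to 0.66 for EGR1 and ARC, -0.33 to 0.044 for EGR1 and NPTX2, -0.30 to 0.10 for ARC and NPTX2, and -0.065 to 0.29 for FOS and NPTX2. Without TMM the share of higher genes among those called with age was 33.2%, against 48.5%, from 1 to 20 dph 32.9%, against 48.3%, and from 65 dph to adulthood 61.7%, against 49.6%. No paired analysis was possible because the pool numbers do not match pools of different groups by bird or nest. Which nests each pool drew on is not given in the sources used here. With 6 pools an age, no correlation within an age could give a p under 0.00139 before adjustment.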
